A study of Mus musculus with 4 samples.

Results

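The 4E-BP and eIF4F cap-binding genes are the genes of the proteins that hold, or block, the cap at the 5′ end of a messenger RNA when translation starts. A list of 9 genes was read: the inhibitors Eif4ebp1, Eif4ebp2 and Eif4ebp3, the cap-binding proteins Eif4e, Eif4e2 and Eif4e3, and the scaffolds Eif4g1, Eif4g2 and Eif4g3. Members were taken from the probe sets that the array annotation assigns to a single gene, a probe set being the group of short probes that together read one transcript. This gave 7 members with 28 probe sets, of 18193 genes with such a probe set on the array. No probe set is listed for Eif4g1 in the annotation used, and the one listed for Eif4ebp3 is assigned to several genes, so that these 2 genes were not analysed here. A probe set was counted as past the filter on dim signals if it reached the median of its array on at least 1 array. Of the 28 probe sets 23 passed and 5 did not, and each of the 7 members kept at least 1.

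The study profiled 4 pools of gastrocnemius muscle from male mice, a cross of C57BL/6N and FVBN. Knockout muscle (FoxO1,3,4-/-) came from mice whose floxed FoxO1, FoxO3 and FoxO4 alleles were removed by a Cre recombinase under the MLC1f promoter, which is active in type II and not in type I fibres, and control muscle came from FoxO1,3,4 f/f mice, called wild type in the sample labels. Mice of each genotype were starved for 24 h with free access to water or fed ad libitum. The methods give an age of 2 to 4 months for all experiments and none for these mice alone. RNA of 6 muscles from 3 mice was pooled for each condition and read on 1 array, which makes 4 arrays: starved knockout, fed knockout, starved control and fed control. With 1 array per condition there is no replicate, no test and no SD between animals for any value below. The precision is limited by this number of arrays.

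Most messenger RNAs are read only after eIF4E has bound their cap and has been joined by a scaffold of the eIF4G family and by the helicase eIF4A, a complex known as eIF4F. The 4E-BP proteins occupy on eIF4E the surface that eIF4G needs, and the kinase complex mTORC1 releases them by phosphorylation. In muscle this step is known as a point at which insulin and nutrients set the rate of protein synthesis, and the 4E-BP gene of flies, Thor, is a known target of FoxO. The arrays measure messenger RNA and hold nothing on the amount or phosphorylation of these proteins.

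All values are MAS 5.0 signals, the linear brightness the authors computed for each probe set, used as deposited. Fold changes are ratios of signals, and a gene is said to have risen or fallen only where the ratio reached 1.5-fold, the threshold of the study's methods, on the brightest probe set of the gene by its mean over the 4 arrays. The median signal was at most 23.8 on the knockout and at most 26.3 on the control arrays. Of the deleted genes, Foxo4 had a signal of 34.3 and 31.3 in starved and fed knockout muscle, against 291.3 and 296.9 in starved and fed control muscle. Foxo1 had 165.5 and 185.2 in starved and fed knockout muscle, against 554.4 and 303.8 in starved and fed control muscle. Foxo3 was nearly level in starved muscle and higher in fed knockout muscle. It had 460.9 and 297.3 in starved and fed knockout muscle, against 477.8 and 250.1 in starved and fed control muscle. The place of these probe sets relative to the deleted exons was not looked up, so that Foxo3 neither bears out nor goes against the label. All 7 markers of skeletal muscle and all 6 of slow fibres passed the filter and none changed 1.5-fold in any comparison. Scatter could be read only between probe sets of the same gene. Its SD for a log2 fold change on starvation in knockout and in control muscle was 0.26 and 0.29 for probe sets with a mean signal above 371.0, and 0.76 and 0.74 for the dimmest, with a mean signal under 47.6, and it leaves out differences between mice.

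On starvation, Eif4ebp1 rose in both genotypes, and 2 further members passed 1.5-fold in control muscle only: Eif4g3 rose and Eif4e fell. In knockout muscle 1 of the 7 members rose and none fell, where 7.36% of the 12565 genes past the filter rose and 9.45% fell. In control muscle 2 of the 7 rose and 1 fell, where 9.21% of all genes rose and 14.2% fell. With counts this small the shares are given for orientation only. The median log2 fold change of the 7 members was -0.05 in knockout and 0.18 in control muscle, against -0.06 and -0.11 for all genes.

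**Figure D1:**
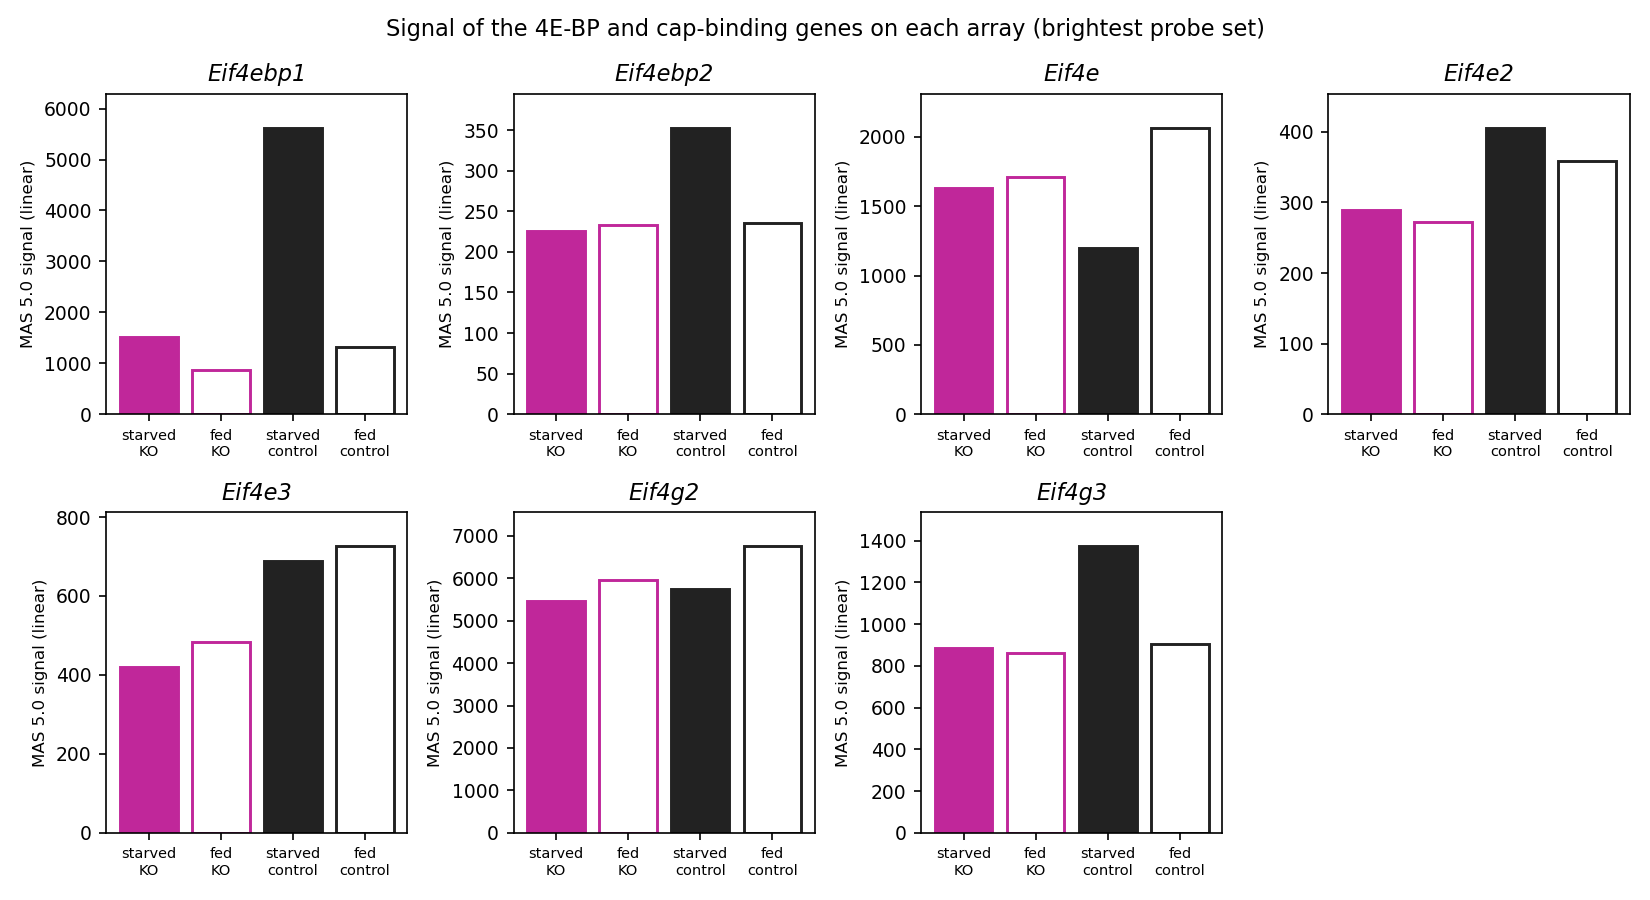
MAS 5.0 signal (linear scale from 0, one axis range per gene) of the brightest probe set of each of the 7 members on the starved knockout, fed knockout, starved control and fed control array (KO, knockout; filled bars starved, open bars fed; 1 pooled array per bar, no error bar). The starved control bar is the highest for Eif4ebp1, Eif4ebp2, Eif4e2 and Eif4g3 and the lowest for Eif4e.

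Eif4ebp1, which encodes the main 4E-BP of skeletal muscle, had the largest change of the members. Its brightest probe set (1434976_x_at) had a signal of 1507.3 in starved and 874.3 in fed knockout muscle, against 5621.3 in starved and 1316.3 in fed control muscle. Starved control muscle thus stood apart from the other 3 arrays, and starved knockout muscle lay just above fed control muscle. The ratio of starved to fed was 1.72 in knockout and 4.27 in control muscle, which is a log2 fold change of 0.79 and 2.09, and the difference, knockout minus control, was -1.31. The suffix of this probe set marks probes that may also bind other transcripts, and 2 further probe sets without it were read. The probe set 1417562_at had 1093.6 in starved and 613.0 in fed knockout muscle, against 3802.0 in starved and 743.7 in fed control muscle. The dimmest (1417563_at) had 87.5 and 54.2 in starved and fed knockout muscle, against 421.9 and 86.8 in starved and fed control muscle. The order of the arrays was the same on all 3 probe sets, with starved knockout and fed control muscle nearly level on the dimmest. Their ratios on starvation ran between 1.61 and 1.78 in knockout and between 4.27 and 5.11 in control muscle, and the difference in log2 fold change ran between -1.59 and -1.31. Of the 12565 genes, Eif4ebp1 held place 620 from the top in knockout and place 106 in control muscle.

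Eif4ebp2, a second 4E-BP, was higher in starved control muscle than on the other 3 arrays on its brightest probe set. This probe set (1436158_at) had 225.8 in starved and 233.0 in fed knockout muscle, against 352.7 in starved and 235.3 in fed control muscle. The other 3 arrays lay between 225.8 and 235.3. The ratio of starved to fed was 0.969 in knockout and 1.499 in control muscle, just short of the threshold, and the difference in log2 fold change was -0.63. On the other 3 probe sets past the filter the ratio in control muscle ran between 1.18 and 1.30, so that all 4 lay above 1 and none reached 1.5 as deposited. With equal array medians and after quantile normalization the brightest probe set did pass, at a log2 fold change of 0.60 and 0.66, which makes 3 members up in control muscle in place of 2. In knockout muscle the other 3 probe sets of Eif4ebp2 past the filter had ratios of 0.486, 0.910 and 1.04. The first of them (1417084_at) had a signal of 123.2 in starved and 253.7 in fed knockout muscle, against 212.7 in starved and 168.6 in fed control muscle, so that its fed knockout value was its highest, unlike on the brightest probe set. The difference in log2 fold change lay below 0 on all 4, between -1.38 and -0.18. The remaining probe set, under the filter, was at 8.3 or less on every array.

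Eif4e, the cap-binding subunit itself, ran the other way and fell in control muscle. Its brightest probe set (1450908_at) had 1628.7 in starved and 1710.4 in fed knockout muscle, against 1196.5 in starved and 2064.8 in fed control muscle. The control arrays lay outside the pair of knockout arrays, one below and one above. The ratio of starved to fed was 0.952 in knockout and 0.579 in control muscle, a log2 fold change of -0.07 and -0.79, with a difference of 0.72. All 4 probe sets of the gene passed the filter and gave a ratio between 0.471 and 0.579 in control muscle, each past the threshold. In knockout muscle the ratios were 0.952, 0.851, 1.13 and 1.27 from the brightest to the dimmest, none past the threshold. The difference in log2 fold change was positive on all 4, between 0.72 and 1.43.

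**Figure D2:**
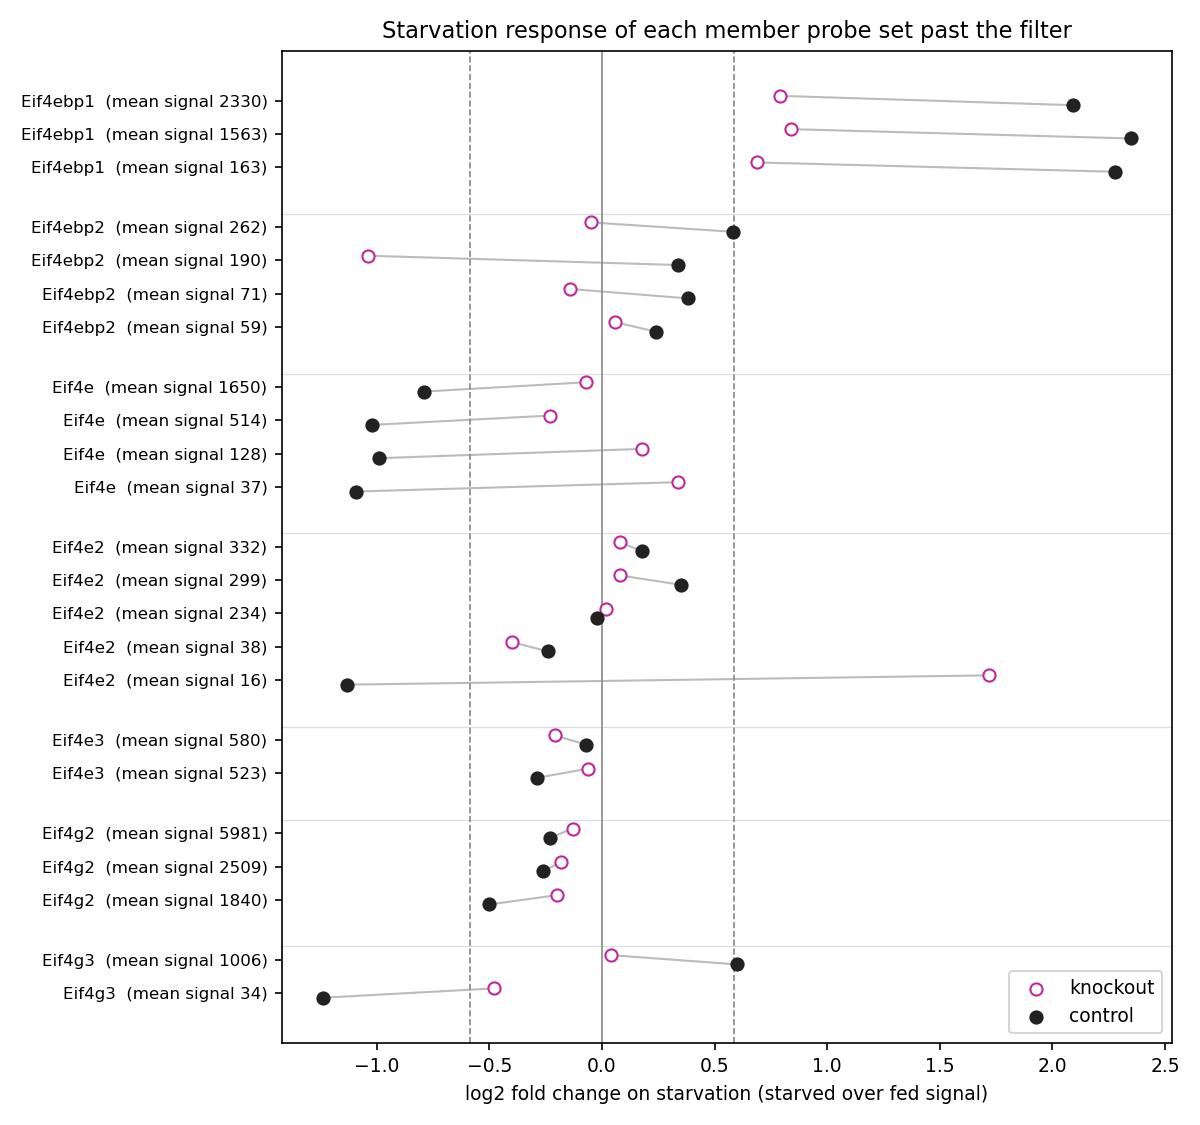
Starvation response, as log2 of starved over fed signal (horizontal axis), of each of the 23 member probe sets past the filter, open points for knockout and filled points for control muscle, joined by a line (1 array each). The dashed lines stand at 1.5-fold; the filled points of Eif4ebp1 lie between 2.09 and 2.35 and those of Eif4e between -1.09 and -0.79, and the widest line belongs to an Eif4e2 probe set with a mean signal of 16.4.

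Eif4g3, one of the scaffolds that join eIF4E to the small ribosomal subunit, rose narrowly in control muscle. Its bright probe set (1426833_at) had 886.3 in starved and 859.6 in fed knockout muscle, against 1373.1 in starved and 904.6 in fed control muscle. As for Eif4ebp2, the starved control array was high and the other 3 lay close together. The ratio was 1.03 in knockout and 1.52 in control muscle. The difference in log2 fold change was -0.56, short of 1.5-fold, as deposited and -0.59, past it, after quantile normalization. The other probe set past the filter (1446145_at) was dim and went against it, with 25.6 and 35.7 in starved and fed knockout muscle, against 22.1 and 52.3 in starved and fed control muscle. With the mean of these 2 probe sets the log2 fold change was -0.22 in knockout and -0.32 in control muscle and their difference was 0.10, so that the rise of Eif4g3 rests on its bright probe set. The 2 remaining probe sets were under the filter, at 23.4 or less on every array.

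Promoter windows of 3 members are shown, since Eif4ebp2 and Eif4g3 were high on the same array and Eif4e was low on it. From the RefSeq promoter table (GRCm38.p6), windows of 5 of the 9 listed genes were searched, namely Eif4e, Eif4e2, Eif4g1, Eif4g3 and Eif4ebp2. The other listed genes were not searched, whether or not the table holds a window for them. The 250 bases before each start were searched on both strands for GTAAACA, the core forkhead site bound by FoxO factors, for CAAAACA, the insulin response core, and for CACGTG, the E-box bound by Myc. The first pair of motifs ends alike in AAACA, and CACGTG reads the same on both strands. Capitals mark matches; of the start sites of Eif4e the downstream one is shown, on the plus strand (chr3:138527018-138527267), with Eif4g3 on the plus strand (chr4:137993205-137993454) and Eif4ebp2 on the minus strand (chr10:61452670-61452919), each 5′ to 3′.
Eif4e: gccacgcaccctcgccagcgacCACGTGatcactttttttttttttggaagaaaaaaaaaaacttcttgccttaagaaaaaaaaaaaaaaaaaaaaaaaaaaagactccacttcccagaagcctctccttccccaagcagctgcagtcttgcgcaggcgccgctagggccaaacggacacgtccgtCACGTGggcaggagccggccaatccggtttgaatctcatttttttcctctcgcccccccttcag
Eif4g3: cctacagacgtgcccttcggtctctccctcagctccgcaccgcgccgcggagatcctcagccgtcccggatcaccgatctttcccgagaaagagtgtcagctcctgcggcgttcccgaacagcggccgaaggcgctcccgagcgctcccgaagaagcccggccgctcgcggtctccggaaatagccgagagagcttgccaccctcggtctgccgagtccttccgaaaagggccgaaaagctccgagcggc
Eif4ebp2: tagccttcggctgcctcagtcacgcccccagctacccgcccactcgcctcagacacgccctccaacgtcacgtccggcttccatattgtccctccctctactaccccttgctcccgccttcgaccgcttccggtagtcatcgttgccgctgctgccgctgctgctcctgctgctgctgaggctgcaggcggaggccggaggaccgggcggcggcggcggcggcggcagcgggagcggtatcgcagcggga
The Eif4e window held CACGTG at 2 places, which begin 228 and 64 bases before the start, and the window of the upstream start held none. Of all 32851 windows of this length in the table, 6.02% held CACGTG, 3.17% GTAAACA and 5.56% CAAAACA. Neither GTAAACA nor CAAAACA was in the windows of the 5 genes, which says only that these letters are not there. The window of Eif4g1 held 1 CACGTG.

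Eif4g2, which encodes the eIF4G relative DAP5, a scaffold that lacks the part binding eIF4E, stayed under 1.5-fold in each comparison on its brightest probe set. Its brightest probe set (1452758_s_at) had 5459.5 in starved and 5963.9 in fed knockout muscle, against 5744.5 in starved and 6755.2 in fed control muscle. The fed value was the higher in each genotype, with a ratio of 0.915 in knockout and 0.850 in control muscle. Over the 3 probe sets past the filter the ratios ran between 0.868 and 0.915 in knockout and between 0.706 and 0.850 in control muscle. The 2 probe sets under the filter were at 22.5 or less on every array.

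Eif4e2, a cap-binding relative known for a repressive role, and Eif4e3, another relative that binds the cap in a different way, did not pass the threshold on starvation on their brightest probe sets. Eif4e2 had 289.0 and 272.8 in starved and fed knockout muscle, against 405.6 and 358.9 in starved and fed control muscle (1421985_a_at). Its ratio was 1.06 in knockout and 1.13 in control muscle. The 2 next probe sets by signal had ratios of 1.06 and 1.01 in knockout and 1.27 and 0.990 in control muscle. The 2 dimmest probe sets disagreed with each other in knockout muscle, at 0.758 and 3.30, the second with a signal of 20.1 and 6.1 in starved and fed knockout muscle, against 12.3 and 26.9 in starved and fed control muscle. Averaged over its 5 probe sets, Eif4e2 had a log2 fold change in control muscle of -0.17, in place of 0.18, and a difference between genotypes of 0.47, in place of -0.09. Eif4e3 had 419.8 and 484.0 in starved and fed knockout muscle, against 689.0 and 725.6 in starved and fed control muscle (1417978_at). Here the arrays separated by genotype and not by feeding, with both knockout values below both control values. The other probe set (1417977_at) had 404.1 and 421.1 in starved and fed knockout muscle, against 569.6 and 696.2 in starved and fed control muscle, in the same arrangement.

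**Figure D3:**
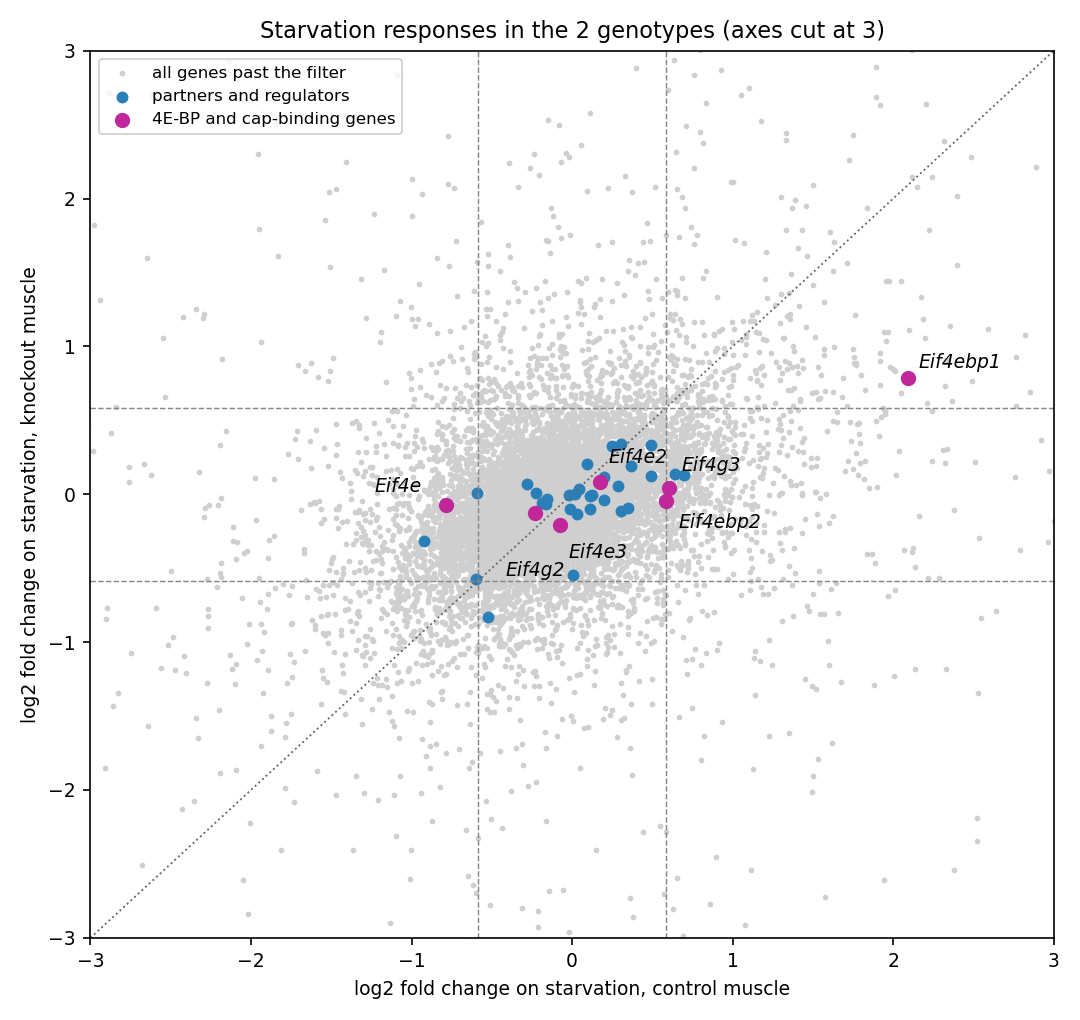
Log2 fold change on starvation in control muscle (horizontal) and in knockout muscle (vertical) of all 12565 genes past the filter (grey), of the 31 partners and regulators (blue) and of the 7 members (magenta), with dashed lines at 1.5-fold and a dotted line at equal responses; 178 grey genes lie outside the axes. Eif4ebp1 lies at 2.09 and 0.79 and Eif4e at -0.79 and -0.07, on either side of the dotted line, and both genotypes' values come from 1 array per condition.

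The difference between the starvation responses of the genotypes passed 1.5-fold for 3 of the 7 members. It was below 0, that is lower in knockout muscle, for Eif4ebp1 and Eif4ebp2, where 10.4% of all genes had such a difference, and above 0 for Eif4e, where 12.3% did. The median of the 7 differences was -0.13, against 0.04 for all genes. Eif4g3 passed the threshold upward in control but not in knockout muscle, a pattern shared by 6.58% of all genes, and Eif4e fell in control muscle only, as did 10.3%.

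Read between the genotypes, 4 of the 7 members had a lower signal in starved knockout than in starved control muscle by at least 1.5-fold, and none a higher one, where 14.5% of all genes were lower and 6.37% higher. These were Eif4ebp1, with a ratio of 0.268, Eif4e3, with 0.609, Eif4ebp2, with 0.640, and Eif4g3, with 0.645. Eif4e stood at 1.36. In fed muscle 1 of the 7 was lower and none higher, where 11.3% of all genes were lower and 3.37% higher. This was Eif4ebp1, with a ratio of 0.664, at the threshold, and its probe set 1417562_at had 0.824. It was the 1 member lower in both states, a pattern that 3.33% of all genes had. Eif4e3 missed the threshold narrowly in fed muscle, with a ratio of 0.6670 where 0.6667 was needed, and had 0.605 on its other probe set.

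The knockout arrays were dimmer as a whole, with a median log2 ratio of knockout over control of -0.16 starved and -0.20 fed over all genes. Against this shift, the log2 ratio of Eif4ebp1 was lower by 1.74 starved and 0.39 fed, and that of Eif4e3 by 0.55 and 0.39. Eif4e was 0.61 above the shift in starved and 0.08 below it in fed muscle. After scaling all arrays to one median, and likewise after quantile normalization, Eif4ebp1 was the 1 member lower at 1.5-fold in starved knockout muscle, Eif4e was higher at 1.5-fold, and none was lower in fed knockout muscle. The calls for Eif4ebp2, Eif4e3 and Eif4g3 between genotypes therefore depend on the scaling of the arrays, and those for Eif4ebp2 and Eif4g3 were also lost when a gene's probe sets were averaged, while their signs did not change for starved muscle in either scaling. The split of all genes moved as well: 801 were higher and 1828 lower in starved knockout muscle as deposited, 1264 and 1046 with equal medians and 1279 and 1039 after quantile normalization. In fed knockout muscle 424 were higher and 1414 lower as deposited, 601 and 903 with equal medians and 636 and 797 after quantile normalization.

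Marker sums of several other cell types were lower in knockout muscle, most by less than 1.5-fold. The sums are of signals as deposited and hold the general dimness of the knockout arrays. That shift was a median log2 ratio of -0.16 starved and -0.20 fed over all genes. Small differences, such as fibroblast sums with knockout over control ratios of 0.93 starved and 0.903 fed, cannot be told apart from it. The summed signal of 5 of 5 markers of macrophages and leukocytes was 1567.7 and 1838.8 in starved and fed knockout muscle, against 2102.2 and 2363.5 in starved and fed control muscle. That of 5 of 5 endothelial markers was 1806.2 and 1871.1 in starved and fed knockout muscle, against 2191.2 and 2327.5 in starved and fed control muscle. Of 5 adipocyte markers 3 passed the filter, with a sum of 2935.9 and 3802.8 in starved and fed knockout muscle, against 5072.4 and 4754.0 in starved and fed control muscle. No marker past the filter was listed at 0. These sums are lower in knockout muscle in both states, as is Eif4e3, and their part in the members' ratios was not tested. In starved knockout muscle Csf1r alone had 1184.2 of the macrophage and leukocyte sum, and Adipoq 2510.6 of the adipocyte sum. Cd68 and Lep were higher in starved knockout than in starved control muscle, with 147.3 against 127.5 and 253.9 against 235.0. The other markers of these lists past the filter were lower there. The 5 of 5 fibroblast markers summed to 19752.3 and 25309.5 in starved and fed knockout muscle, against 21242.5 and 28039.3 in starved and fed control muscle, lower after starvation in both genotypes. The collagen genes changed most, with ratios of starved to fed in knockout and control muscle of 0.514 and 0.413 (Col1a1), 0.641 and 0.668 (Col1a2) and 0.466 and 0.536 (Col3a1). Dcn had 0.998 and 0.916, and Pdgfra 0.937 and 0.826. In muscle taken whole, fewer cells of a type and less RNA per cell cannot be told apart. Hair shaft and epidermis markers, 7 of 7 past the filter, summed to 1111.3 and 965.1 in starved and fed knockout muscle, against 646.7 and 679.8 in starved and fed control muscle. These sums hide opposite changes: the hair keratin gene Krt25 had 318.5 and 18.2 in starved and fed knockout muscle, against 6.9 and 252.9 in starved and fed control muscle, whereas Lor, of the epidermis, had 131.5 and 132.8 in starved and fed knockout muscle, against 177.5 and 12.5 in starved and fed control muscle. In each genotype 3 of the 7 rose on starvation, and 1 fell in knockout and 3 in control muscle. Of 5 red blood cell markers 1 passed the filter, Alas2, with 68.3 and 50.7 in starved and fed knockout muscle, against 124.9 and 62.6 in starved and fed control muscle. It was highest in starved control muscle, as was Eif4ebp1. The part of these markers in the members' values was not tested.

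**Figure D4:**
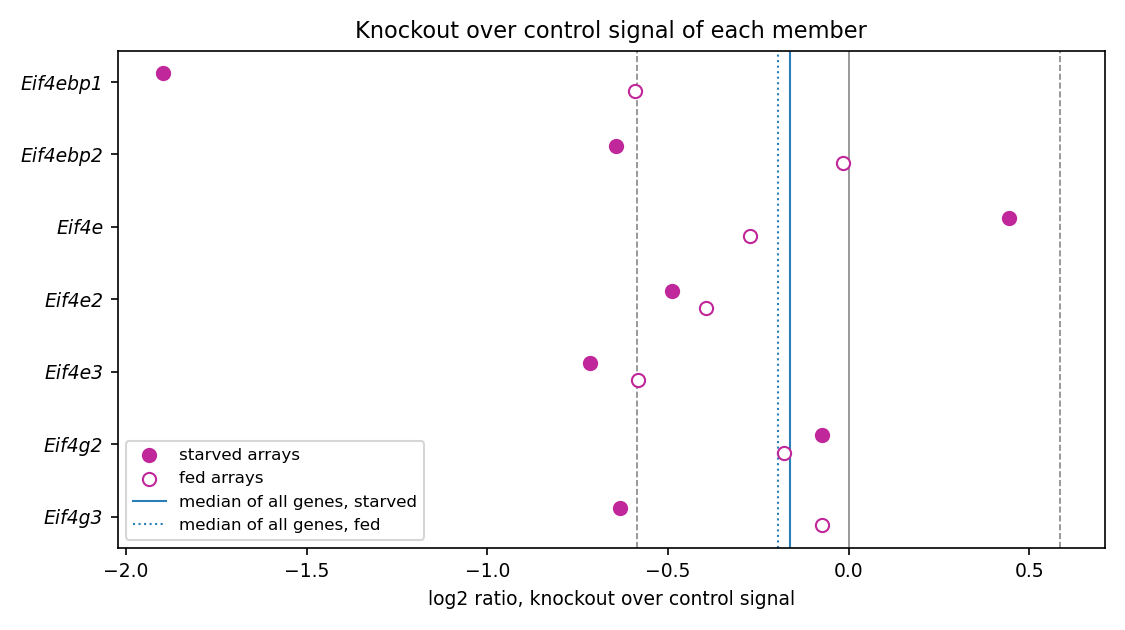
Log2 ratio of knockout over control signal (horizontal axis) for the brightest probe set of each member, filled points for starved and open points for fed arrays (1 array each). The dashed lines stand at 1.5-fold and the blue lines at the medians of all genes, -0.16 starved and -0.20 fed; Eif4ebp1 starved lies at -1.90 and Eif4e starved at 0.44.

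The genes whose pattern over the 4 arrays was most like that of Eif4ebp1 were Gabarapl1, Sesn1, Tgif1, Tmem140 and Fbxo32. Likeness was the distance between log2 signals, each centred on its own mean over the 4 arrays, among 5768 genes at or above the 75th percentile on at least 1 array that changed in 1 direction on all probe sets in control muscle. The distance was 0.20 for Gabarapl1, an autophagy gene, 0.251 for Sesn1, a sestrin, 0.264 for Tgif1, 0.276 for the membrane protein gene Tmem140 and 0.324 for Fbxo32, the ubiquitin ligase atrogin1. Gabarapl1 had 773.9 and 482.3 in starved and fed knockout muscle, against 2592.7 and 626.6 in starved and fed control muscle. Tmem140 had 438.4 and 293.2 in starved and fed knockout muscle, against 1916.4 and 501.1 in starved and fed control muscle. As for Eif4ebp1, starved control muscle was the highest and fed knockout muscle the lowest of the 4 arrays for both genes. This shared order follows from choosing the genes by likeness over these arrays. Distances over 4 arrays describe these arrays only.

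Of 33 partners and regulators listed 31 were past the filter, and Rps6kb1 and Cyfip1 were not analysed here. In knockout muscle none of the 31 rose and 1 fell, where 7.36% of all genes rose and 9.45% fell. In control muscle 2 rose and 3 fell, where 9.21% of all genes rose and 14.2% fell. Counts this small are not set apart from those shares. Their median log2 fold change was 0.00 in knockout and 0.10 in control muscle, against -0.06 and -0.11 for all genes.

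None of the 10 helicase and poly(A)-binding partners passed 1.5-fold in either genotype on its brightest probe set. Paip2b, which binds and restrains the poly(A)-binding protein, came nearest in control muscle, with 945.2 and 751.3 in starved and fed knockout muscle, against 1288.9 and 916.8 in starved and fed control muscle. Its ratio of starved to fed was 1.26 in knockout and 1.41 in control muscle. Eif4a1, the helicase subunit of eIF4F, had 2439.6 and 2237.8 in starved and fed knockout muscle, against 3406.7 and 2426.9 in starved and fed control muscle. Its log2 fold change was 0.12 in knockout and 0.49 in control muscle. Its close relative Eif4a2 had a log2 fold change of 0.33 in knockout and 0.25 in control muscle. Paip1, which binds the same protein and favours translation, had 0.06 in knockout and 0.29 in control muscle, and Pdcd4, an inhibitor of eIF4A, had 0.01 and -0.22. The dimmest probe set of Paip1 past the filter passed 1.5-fold downward, with -0.78 in knockout and -1.18 in control muscle, at signals of 38.5 or less.

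The 11 measured genes of mTORC1 and of kinases acting on this step were called on their brightest probe sets. Mknk2 rose and Mlst8, Deptor and Klhl25 fell in control muscle, and none passed the threshold in knockout muscle. Mknk2, a kinase that phosphorylates eIF4E, had 4530.1 in starved and 4130.2 in fed knockout muscle, against 6362.0 in starved and 3921.1 in fed control muscle. Only the starved control array was high. The dimmer probe set of Mknk2 had a log2 fold change of 0.07 in knockout and 0.60 in control muscle. Mlst8, an mTOR-binding subunit, had 83.9 in starved and 104.5 in fed knockout muscle, against 56.7 in starved and 107.4 in fed control muscle. Its dimmer probe set had a log2 fold change of -0.22 in knockout and 0.21 in control muscle. Deptor, an inhibitor of mTOR, had a log2 fold change of -0.57 in knockout and -0.60 in control muscle, on either side of the threshold and 0.03 apart. Its other probe sets past the filter had, from bright to dim, -0.38 and -0.50, -0.67 and -0.72, -0.30 and -0.64, and -0.15 and 0.82. The one at -0.67 and -0.72 passed 1.5-fold downward in both genotypes, and the dimmest passed it upward in control muscle. Klhl25, an adaptor of a ubiquitin ligase for 4E-BP1 in human cells, was dim, with 60.8 and 60.5 in starved and fed knockout muscle, against 46.5 and 70.1 in starved and fed control muscle. Mtor itself had 316.4 and 292.4 in starved and fed knockout muscle, against 355.5 and 309.3 in starved and fed control muscle. Its dimmer probe set had 52.5 and 23.1 in starved and fed knockout muscle, against 32.2 and 55.1 in starved and fed control muscle.

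Of 10 genes listed as other eIF4E or cap binding proteins, or placed with them, Larp4 rose in control muscle and Cyfip2 fell in knockout muscle. Larp4, which binds poly(A) tails and the poly(A)-binding protein, had 689.7 in starved and 625.7 in fed knockout muscle, against 941.3 in starved and 604.1 in fed control muscle. Its other 2 probe sets had log2 fold changes of 0.01 and -0.01 in knockout and 0.39 and 0.42 in control muscle. Cyfip2, a relative of the eIF4E-binding protein CYFIP1, was dim, with 49.4 and 88.0 in starved and fed knockout muscle, against 43.6 and 62.8 in starved and fed control muscle. Its other probe set past the filter passed the threshold downward in both genotypes, with a log2 fold change of -1.15 in knockout and -1.34 in control muscle, and with the mean of both Cyfip2 fell in control muscle as well. Ncbp2, the small subunit of the nuclear cap-binding complex, had a log2 fold change of -0.55 in knockout and 0.01 in control muscle on its brightest probe set. The next had -0.45 and -0.53, and the dimmest had -0.71 and -0.04, past 1.5-fold in knockout muscle. Gigyf1, a partner of the Eif4e2 protein, had -0.09 in knockout and 0.35 in control muscle.

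**Figure D5:**
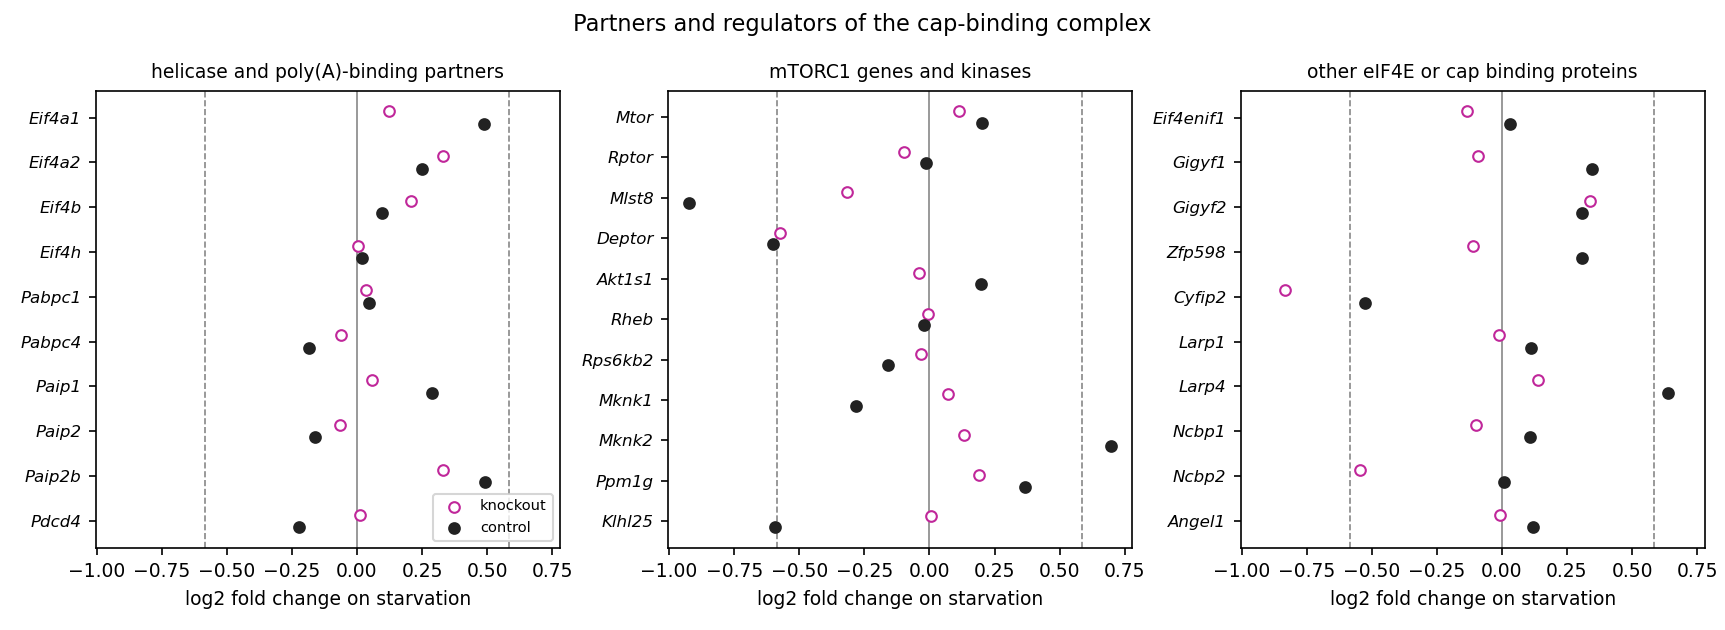
Log2 fold change on starvation (horizontal axis) of the 31 partners and regulators in 3 lists, open points for knockout and filled points for control muscle, brightest probe set of each gene. The dashed lines stand at 1.5-fold, and each condition has 1 array; the filled points past these lines belong to Mknk2, Larp4, Mlst8, Deptor and Klhl25, and the open one to Cyfip2.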

How the data were processed

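The authors hybridized pooled RNA to Affymetrix mouse whole-genome arrays and deposited signal intensities made with MAS 5.0. Expression Console is named as well in the submitters' processing notes. The target of the scaling is not given in the sources used here; detection calls were not used. The intensities were used as deposited. Of 45037 probe sets other than controls, 34945 have 1 gene in the platform annotation, 932 several and 9160 are not listed. For 34741 the symbol was taken from RefSeq (GRCm38.p6) by gene identifier, whether or not it differed from the annotation. A probe set was kept at or above the 50th percentile of at least 1 array, the brightest probe set by mean signal stood for its gene, and a signal of 0 was set to 0.1 before a logarithm. Calls were made at 1.5-fold. With 1 array per condition nothing was tested.

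The members, lists and alternatives were chosen with earlier results of these data known. Named genes were the members, in each list at most 3 by size of change in either genotype and 3 by size of the genotypes' difference, and the 5 most like Eif4ebp1; Mtor was named outside this rule. Alternatives were the scaling, the filter, an offset of 16, the mean over probe sets and a fold of 2; leaving out probe sets that may bind several transcripts was chosen after seeing the data. Calling was run on simulated data with known fold changes, with noise set by the scatter between probe sets and none for differences between mice. Its pass condition concerned only median log2 fold changes, so it does not measure how reliable the 1.5-fold calls are. Python 3.11.15, numpy 2.4.6, pandas 2.3.3 and matplotlib 3.10.9 were used.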

Additional observations from a re-analysis of the deposited data

Results flagged for a closer look

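Eif4ebp2 drew attention because its log2 fold change on starvation had opposite signs in the genotypes, -0.05 in knockout and 0.58 in control muscle, a difference of -0.63 that was not tested since each condition has 1 array. The knockout value lay close to 0 and its sign turned with the scaling, at 0.01 with equal array medians and 0.02 after quantile normalization. Klhl25 drew attention for the same reason, with 0.01 in knockout and -0.59 in control muscle, a difference of 0.60, also not tested and with a knockout value close to 0, at signals of 70.1 or less.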

How the results depend on the processing

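Of 245 values of single members recomputed under the alternatives, 235 moved by less than the scatter between probe sets, 9 by more, and 1 value past 1.5-fold changed sign. Eif4ebp1 ranged between 0.77 and 0.84 (log2) on starvation in knockout and between 2.08 and 2.35 in control muscle, and Eif4e between -0.97 and -0.74 in control muscle. That value was Eif4g3 on starvation in control muscle, at -0.32 with the mean over probe sets, since its dim second probe set fell. Some values under 1.5-fold also changed sign, such as those of Eif4e2 given above. Part of the 235 could not have moved. All 35 values were unchanged under each filter setting, because the brightest probe set stands for its gene with or without a filter. Leaving out probe sets that may bind several transcripts could change only Eif4ebp1 and Eif4g2. With the mean over probe sets, 8 of the 35 values moved by more than the scatter and 1 changed sign.

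After scaling all arrays to one median, and likewise after quantile normalization, 1 member was higher and 1 lower in starved knockout over control muscle, 0 were lower in fed muscle, and 1 partner or regulator fell in control muscle; both settings added Eif4ebp2 to the members up in control muscle, 3 in place of 2. After quantile normalization Eif4g3 joined Eif4ebp1 and Eif4ebp2 as members with a lower response in knockout muscle, 3 in place of 2. With the filter at the 75th percentile 0 partners or regulators fell in knockout and 1 in control muscle. With an offset of 16, 0 members were lower in fed knockout muscle and 1 partner or regulator fell in control muscle. With the mean over probe sets, 1 member rose in control muscle, 1 was higher and 2 lower in starved knockout muscle, 2 were lower in fed knockout muscle (Eif4e2 and Eif4e3, with Eif4ebp1 no longer past the threshold at -0.52), and 1 partner or regulator rose in each genotype. At 2-fold, Eif4ebp1 was the 1 member that rose in control muscle, the 1 lower in starved knockout muscle and the 1 with a lower response in knockout muscle; 0 members and 0 partners or regulators passed in the other calls. Without probe sets that may bind several transcripts, a choice made after seeing the data, 0 members were lower in fed knockout muscle, where Eif4ebp1 stood at -0.28. Leaving out the filter moved no count of members, partners or regulators by over 1.5 times. Over all genes, the alternatives gave between 286 and 2738 genes up and between 403 and 2979 down on starvation in knockout muscle (925 and 1187 as reported), and between 469 and 2976 up and between 605 and 3582 down in control muscle (1157 and 1785). For knockout over control the ranges were 274 to 2405 higher and 568 to 3844 lower in starved muscle (801 and 1828), and 44 to 2066 higher and 408 to 3414 lower in fed muscle (424 and 1414). Dim probe sets limit the reading: under a mean signal of 47.6 the scatter of a log2 fold change was 0.76 in knockout and 0.74 in control muscle. No paired analysis was possible because each group has 1 array and the labels give no replicate numbers.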
